A study of Mus musculus with 14 samples.

Results

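The 10 genes described here are the Toll-like receptor genes Tlr1, Tlr2, Tlr3, Tlr4, Tlr6, Tlr7, Tlr9 and Tlr13, the co-receptor gene Cd14 and the adaptor gene Myd88. They were matched by gene symbol, from a list drawn up with earlier results of these data known. All 10 were found in both expression tables, which hold 56953 genes after BaCl2 injury and 14330 after glycerol injury. RNA sequencing was run on fibro-adipogenic progenitors (FAPs), mesenchymal cells of skeletal muscle that can form fibroblasts and adipocytes, taken from the tibialis anterior of mice with SMA (spinal muscular atrophy, a motor neuron disease caused by too little SMN protein) and of wild-type (WT) mice. Magnetic sorting was used to collect the cells 3 days after the muscle was injured with BaCl2 or with glycerol, injuries from which muscle regenerates with little fat and with more fat. There were 3 SMA and 3 WT libraries after BaCl2, and 4 SMA and 4 WT libraries after glycerol. Every group was injured, so none shows the genes in resting muscle. The labels name neither the SMA allele, nor the strain or age of the mice, nor the antibodies of the sort, and they do not say whether each library came from its own animal, so that the p-values reflect no more than the variation among the libraries at hand, which may be technical.

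Toll-like receptors recognise molecules of microbes and of damaged cells. Tlr1, Tlr2, Tlr4, Tlr5 and Tlr6 encode receptors of the cell surface for lipids, lipopeptides and flagellin, while Tlr3, Tlr7, Tlr8, Tlr9 and Tlr13 encode receptors of endosomes for nucleic acids. All of them except TLR3 signal through the adaptor MYD88 to kinases of the IRAK family and on to NF-kappaB and interferon regulatory factors, and CD14 passes lipopolysaccharide and other ligands to the receptors. Macrophages carry most of these receptors, and fibroblasts carry some, with TLR3 and TLR4 among them. In injured muscle, macrophages and FAPs lie side by side during repair.

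The promoters of 5 of the genes are shown because the genes differed in outcome: Tlr2, Tlr9 and Tlr13 were higher in SMA cells after BaCl2, while Tlr3 and Myd88 were not. Each line holds the 250 bases before the transcription start, 5′ to 3′ on the strand of the gene, from RefSeq on build GRCm38.p6. A promoter was found in that source for 7 of the 10 genes, and the 3 others are Tlr4, Tlr7 and Cd14. Capitals mark the motif GAGGAA, the core bound by the myeloid factor PU.1, and the motif GAAANNGAA, the core of the interferon-stimulated response element. Each was searched on both strands, and no match overlaps another in the 5 windows shown.
Tlr2, chr3:83841609-83841858, - strand: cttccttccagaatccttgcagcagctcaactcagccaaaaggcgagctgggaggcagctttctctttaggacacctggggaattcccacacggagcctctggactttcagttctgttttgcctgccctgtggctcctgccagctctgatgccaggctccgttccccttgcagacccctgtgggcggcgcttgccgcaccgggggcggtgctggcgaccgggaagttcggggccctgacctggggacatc
Tlr9, chr9:106222348-106222597, + strand: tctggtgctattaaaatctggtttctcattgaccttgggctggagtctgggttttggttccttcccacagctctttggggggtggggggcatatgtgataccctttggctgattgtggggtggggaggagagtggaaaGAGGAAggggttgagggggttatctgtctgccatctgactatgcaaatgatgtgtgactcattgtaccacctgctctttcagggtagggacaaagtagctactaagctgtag
Tlr13, chrX:106143025-106143274, + strand: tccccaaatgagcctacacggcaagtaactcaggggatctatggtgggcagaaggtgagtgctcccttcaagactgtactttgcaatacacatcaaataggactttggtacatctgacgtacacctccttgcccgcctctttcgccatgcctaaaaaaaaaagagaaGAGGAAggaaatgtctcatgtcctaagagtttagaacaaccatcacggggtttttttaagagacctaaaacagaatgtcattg
Tlr3, chr8:45410381-45410630, - strand: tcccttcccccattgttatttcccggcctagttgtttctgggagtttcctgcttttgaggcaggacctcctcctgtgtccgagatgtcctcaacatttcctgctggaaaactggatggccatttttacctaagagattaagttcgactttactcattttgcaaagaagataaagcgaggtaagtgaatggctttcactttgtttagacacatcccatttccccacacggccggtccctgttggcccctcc
Myd88, chr9:119340019-119340268, - strand: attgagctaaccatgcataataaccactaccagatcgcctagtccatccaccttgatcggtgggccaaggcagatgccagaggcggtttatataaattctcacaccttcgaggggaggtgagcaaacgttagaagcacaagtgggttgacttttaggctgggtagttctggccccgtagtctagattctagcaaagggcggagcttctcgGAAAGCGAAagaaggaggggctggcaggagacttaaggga
GAGGAA was found 112 bases before the start of Tlr9 and 83 bases before that of Tlr13, and not in the windows of Tlr2, Tlr3 and Myd88. It was also found before Tlr1, which was not called, 23 bases before 1 of its 2 starts, so that it was not particular to called genes. Of 32536 mouse promoter windows of this length, 23.4% held GAGGAA. GAAANNGAA was found 40 bases before the start of Myd88 and in none of the other 4 windows shown. In 1 of the 2 windows of Tlr6 it was found at 2 places that overlap, and 7.15% of all windows held it. A match is a description of the letters only.

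The sequences of Tlr1 and Tlr6, which lie next to each other on chromosome 5, limit how well their reads can be told apart. Their transcripts in GENCODE vM21 shared 454 words of 50 bases, 14.8% of those of Tlr1 and 12.3% of those of Tlr6. The longest stretch that is identical in both genes runs over 229 bases of coding sequence, from base 1468 of the Tlr1 reading frame and from base 1507 of the Tlr6 reading frame.
Tlr1 and Tlr6: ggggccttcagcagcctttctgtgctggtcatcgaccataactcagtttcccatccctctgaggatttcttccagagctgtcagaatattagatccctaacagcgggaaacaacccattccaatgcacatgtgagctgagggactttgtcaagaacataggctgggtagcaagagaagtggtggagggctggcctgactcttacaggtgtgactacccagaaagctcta
The pair with the next longest identical run, Tlr4 and Tlr6, shared 18 bases and no word of 50 bases. Values of Tlr1 and Tlr6 are therefore uncertain, since the counting could have split or dropped the shared reads.

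Libraries held 97715538 to 136437776 counts after BaCl2. The glycerol table holds normalized counts of similar sum in every library, and its depth is unknown. The gene that is deficient in SMA checked the labels: Smn1 had 11.96, 9.99 and 11.3 CPM (counts scaled to library size) in SMA libraries against 15.8, 17.1 and 15.3 CPM in WT libraries after BaCl2, and 744.5 ± 75.9 in SMA libraries against 1084 ± 113 in WT libraries, in normalized counts, after glycerol (SD, n = 4 each), with no overlap in either table. The FAP marker Pdgfra was measured at 714 to 1015 CPM in SMA libraries and 822 to 940.2 CPM in WT libraries after BaCl2. After glycerol it was at 59457 to 77326.5 normalized counts in SMA libraries and 64097.5 to 77914.7 in WT libraries. Markers of macrophages were measured as well, and all 21 of the list were detected. Their summed level after BaCl2 was 2616 to 3708 CPM in SMA libraries and 1422 to 1942 CPM in WT libraries, and 19 of the 21 were higher in SMA (edgeR's quasi-likelihood test, Benjamini-Hochberg adjusted p under 0.05), with a median log2 fold change of 0.92. After glycerol the sums were 162043 to 390083 normalized counts in SMA libraries and 139929 to 175549 in WT libraries, and 6 of the 21 were higher in SMA by limma, with a median of 1.02. Of all genes tested, 2.73% were higher in SMA after BaCl2 and 1.70% after glycerol. In such bulk samples, more cells of a type and more RNA per cell cannot be told apart. The part of macrophages in the results below was not tested.

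After BaCl2, 5 of the 10 genes were higher in SMA cells and 0 were lower: Tlr2, Tlr7, Tlr9, Tlr13 and Cd14. Of all 20119 genes tested, 2.73% were higher in SMA, 1.56% were lower and 4.29% changed in either direction (edgeR's quasi-likelihood test, adjusted p under 0.05). The median log2 fold change was 0.69 over the 10 genes and 0.00 over all genes. Every SMA library lay above every WT library for 6 of the 10 genes, the same 5 and Tlr1, against 12.2% of all genes. None of the 10 had every SMA library below every WT library, against 13.1% of all genes. Leaving out 1 library moved the count of genes changed after BaCl2 from 863 to between 41 (without WT library 3) and 1577 (without SMA library 3), and that of the 10 called higher to between 1 and 6. After glycerol, 2 of the 10 were higher in SMA, Tlr9 and Cd14, and 0 were lower, while 1.70% of the 14330 genes tested were higher, 1.17% lower and 2.87% changed in either direction (limma with a mean-variance trend on log2(value + 1), adjusted p under 0.05). The median log2 fold change was 0.59 over the 10 genes and 0.00 over all genes, and all 10 fold changes were above 0. Every SMA library lay above every WT library for 3 of the 10, Tlr7, Tlr9 and Cd14, against 6.59% of all genes, and none of the 10 lay below throughout, against 7.54%.

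**Figure D1:**
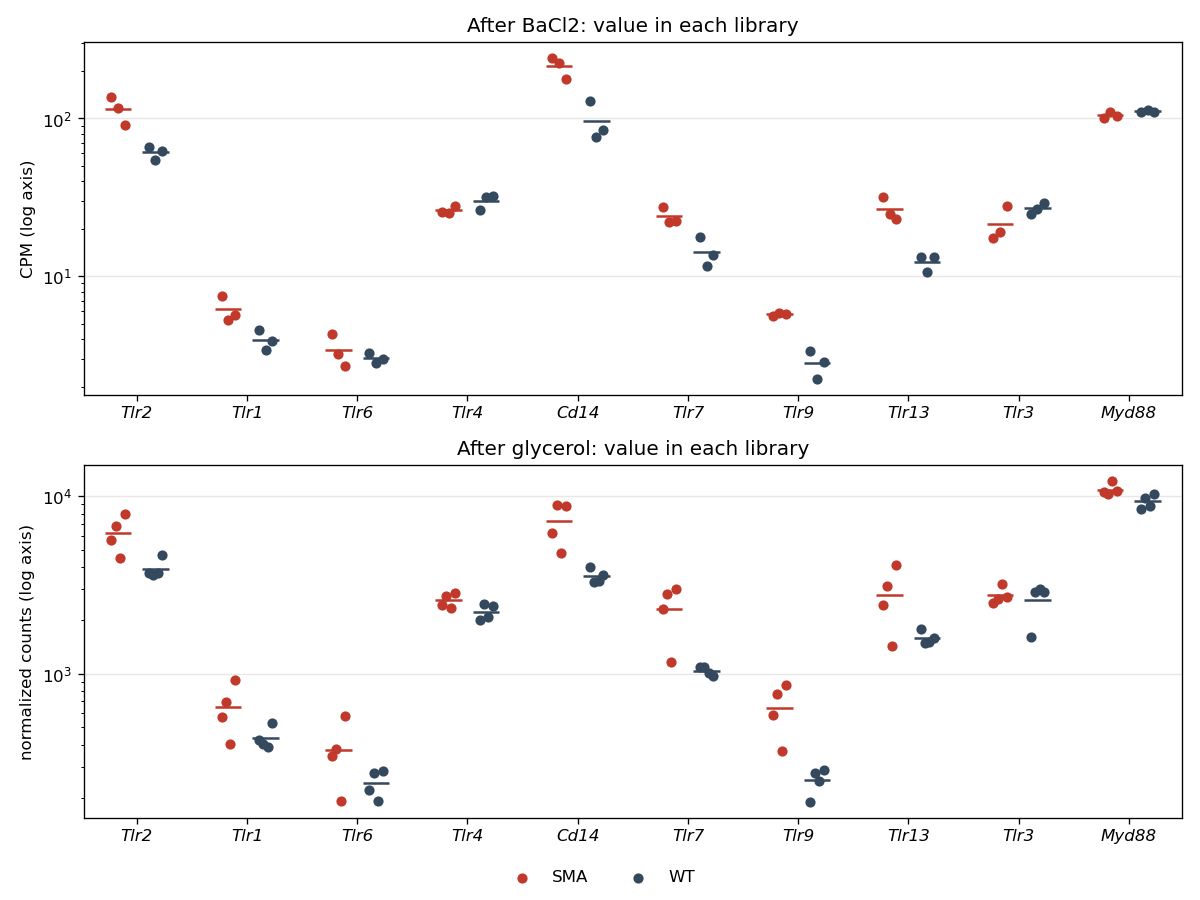
The value of each of the 10 genes in every library, in CPM after BaCl2 (upper panel) and in normalized counts after glycerol (lower panel), both on a log axis; points are libraries, with SMA (red) left of WT (dark), and short lines are group means. After BaCl2 the SMA points of Tlr1, Tlr2, Tlr7, Tlr9, Tlr13 and Cd14 lie above all WT points, and after glycerol those of Tlr7, Tlr9 and Cd14 do.

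Among the receptors of the cell surface, Tlr2, which senses bacterial lipopeptides together with TLR1 or TLR6, was the most abundant. After BaCl2 it had 137, 116 and 90.3 CPM in SMA libraries against 66.2, 54.6 and 62.5 CPM in WT libraries. The 2 groups did not overlap, and library 3 was the lowest of the SMA libraries. The log2 fold change was 0.91 (SE 0.13, adjusted p = 0.008074 by edgeR). After glycerol Tlr2 had 5702, 6809.7, 4515 and 7938 normalized counts in SMA libraries against 3706, 3590.0, 3691 and 4656 in WT libraries. The lowest SMA library, library 3, lay below the highest WT library, library 4, and the log2 fold change of 0.65 (SE 0.16) did not pass (adjusted p = 0.06446 by limma). Leaving out WT library 2 or WT library 3 ended the call of Tlr2 after BaCl2 (adjusted p = 0.0518 and 0.06283), and leaving out SMA library 3 made a call after glycerol (adjusted p = 0.005679).

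Tlr1 and Tlr6 encode the partners of TLR2 and were low. Tlr1 had 5.31 to 7.47 CPM in SMA libraries and 3.42 to 4.58 CPM in WT libraries after BaCl2, with no overlap, and its log2 fold change of 0.63 (SE 0.16) fell short of the threshold (adjusted p = 0.05897 by edgeR). Tlr6 had 2.71 to 4.28 CPM in SMA libraries and 2.80 to 3.26 CPM in WT libraries, so that the WT range lay inside the SMA range. Its log2 fold change was 0.17 (SE 0.18, adjusted p = 0.664). After glycerol Tlr1 had 404 to 924 normalized counts in SMA libraries and 390.0 to 531 in WT libraries, and Tlr6 had 192 to 578 in SMA libraries and 193 to 283 in WT libraries. Both ranges overlapped, and neither gene passed (log2 fold changes 0.51 and 0.53, adjusted p = 0.2158 and 0.3136 by limma). Without SMA library 3 both passed after glycerol (adjusted p = 0.03357 and 0.04123), and without SMA library 3 after BaCl2 Tlr1 passed (adjusted p = 0.04109).

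Tlr4, the receptor for lipopolysaccharide, was not called after either injury. It had 25.5, 25.2 and 28.0 CPM in SMA libraries against 26.2, 31.7 and 32.1 CPM in WT libraries after BaCl2. WT library 1 lay among the SMA libraries, and the log2 fold change was -0.19 (SE 0.09, adjusted p = 0.2688 by edgeR). After glycerol it had 2447, 2750.4, 2345 and 2857 normalized counts in SMA libraries against 2006, 2462, 2084 and 2422 in WT libraries. The groups overlapped again, with a log2 fold change of 0.21 (SE 0.09, adjusted p = 0.2017 by limma). Ly96, which encodes the MD-2 protein that binds lipopolysaccharide on TLR4, had log2 fold changes of -0.19 (adjusted p = 0.6016) and 0.25 (adjusted p = 0.3139) after BaCl2 and glycerol. Tlr5, the flagellin receptor, had 0.25 (adjusted p = 0.3076) and 0.35 (adjusted p = 0.1324).

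Cd14, the co-receptor that hands lipopolysaccharide to TLR4 and MD-2, had the largest fold change of the 10 genes after BaCl2. It had 240.3, 225 and 179 CPM in SMA libraries against 129.7, 76.6 and 84.0 CPM in WT libraries. All SMA libraries were above all WT libraries, and WT library 1 stood above the other WT libraries. The log2 fold change was 1.15 (SE 0.18, adjusted p = 0.01053 by edgeR). After glycerol Cd14 had 6248, 8950.3, 4810.4 and 8872 normalized counts in SMA libraries against 4020.0, 3309, 3354 and 3621 in WT libraries. Again no SMA library fell among the WT libraries, and the log2 fold change was 0.97 (SE 0.19, adjusted p = 0.03637 by limma). Leaving out SMA library 2, WT library 2 or WT library 3 ended the call after BaCl2 (adjusted p = 0.05359, 0.05316 and 0.07899), and leaving out any of 7 of the 8 libraries ended it after glycerol, with adjusted p up to 0.1135, the exception being SMA library 3 (0.001381).

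Of the receptors of endosomes, Tlr13, a receptor for bacterial ribosomal RNA in mice, had the smallest adjusted p of the 10 genes after BaCl2. It had 31.9, 24.9 and 23.0 CPM in SMA libraries against 13.2, 10.6 and 13.3 CPM in WT libraries. The lowest SMA library was well above the highest WT library, and the log2 fold change was 1.10 (SE 0.13, adjusted p = 0.004712 by edgeR). It was the only one of the 5 called genes whose call held without each of the 6 libraries in turn, with adjusted p at most 0.04555. After glycerol Tlr13 had 2436, 3143, 1444 and 4127 normalized counts in SMA libraries against 1785, 1496, 1504 and 1596 in WT libraries. SMA library 3 lay below all WT libraries while the other 3 lay above them, and the log2 fold change of 0.71 (SE 0.27) did not pass (adjusted p = 0.1568 by limma). Without SMA library 3 it was 0.99 and passed (adjusted p = 0.006043).

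Tlr9, the receptor for DNA with unmethylated CpG, was higher in SMA cells after both injuries. After BaCl2 it had 5.60, 5.85 and 5.75 CPM in SMA libraries against 3.36, 2.25 and 2.87 CPM in WT libraries. The SMA libraries were close to each other and above all WT libraries, with a log2 fold change of 1.02 (SE 0.15, adjusted p = 0.009245 by edgeR). After glycerol it had 585, 771, 369.5 and 862 normalized counts in SMA libraries against 191, 278, 251 and 289 in WT libraries. The groups did not overlap, and the log2 fold change of 1.30 (SE 0.26, adjusted p = 0.03754 by limma) was the largest of the 10 genes in that table. Leaving out SMA library 2 or WT library 3 ended the call after BaCl2 (adjusted p = 0.05164 and 0.06648), and leaving out any library but SMA library 3 (0.001577) ended it after glycerol, with adjusted p up to 0.1133.

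Tlr7, a receptor for single-stranded RNA, had 27.6, 22.1 and 22.2 CPM in SMA libraries against 17.7, 11.6 and 13.6 CPM in WT libraries after BaCl2. The groups did not overlap, and the log2 fold change was 0.75 (SE 0.15, adjusted p = 0.02227 by edgeR). After glycerol it had 2332, 2827, 1165 and 3003 normalized counts in SMA libraries against 1094, 1091, 1017 and 979 in WT libraries. SMA library 3 was only just above the WT libraries, and the log2 fold change of 1.07 (SE 0.26) did not pass (adjusted p = 0.06075 by limma). Leaving out SMA library 1 or 2, or WT library 2 or 3, ended the call of Tlr7 after BaCl2 (adjusted p = 0.0535, 0.07208, 0.09689 and 0.1246), and leaving out SMA library 3 made one after glycerol (adjusted p = 0.0003163). Tlr8, which lies next to Tlr7 on the X chromosome and encodes another receptor for RNA, had log2 fold changes of 0.92 (SE 0.18, adjusted p = 0.02198 by edgeR) after BaCl2 and 1.16 (SE 0.29, adjusted p = 0.06676 by limma) after glycerol, and the call after BaCl2 was lost without any of 5 of the 6 libraries (adjusted p up to 0.08452), the exception being SMA library 3.

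Tlr3, the receptor for double-stranded RNA and the one that uses the adaptor TRIF in place of MYD88, went with none of these. It had 17.4, 19.1 and 27.8 CPM in SMA libraries against 24.9, 26.9 and 29.2 CPM in WT libraries after BaCl2. SMA libraries 1 and 2 were below all WT libraries and SMA library 3 was among them, and the log2 fold change was -0.33 (SE 0.15, adjusted p = 0.2672 by edgeR). Without SMA library 3 it was -0.56 and passed (adjusted p = 0.004362). After glycerol Tlr3 had 2513, 2655, 3211 and 2712 normalized counts in SMA libraries against 1609, 2881, 3026 and 2902 in WT libraries. WT library 1 lay far below all others, and the log2 fold change was 0.13 (SE 0.19, adjusted p = 0.7265 by limma), or -0.09 without that library. Ticam1, which encodes TRIF, had log2 fold changes of 0.11 (adjusted p = 0.5705) after BaCl2 and 0.25 (adjusted p = 0.07853) after glycerol.

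Myd88, the adaptor shared by the other receptors, was not called after either injury. It had 101, 110.3 and 103 CPM in SMA libraries against 109.9, 114 and 110.2 CPM in WT libraries after BaCl2, and the groups overlapped, with a log2 fold change of -0.08 (SE 0.06, adjusted p = 0.4804 by edgeR). After glycerol it had 10513, 10329, 12136 and 10695 normalized counts in SMA libraries against 8517, 9739, 8838 and 10370.1 in WT libraries. WT library 4 was above the lowest SMA library, and the log2 fold change of 0.22 (SE 0.08) did not pass (adjusted p = 0.1275 by limma).

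**Figure D2:**
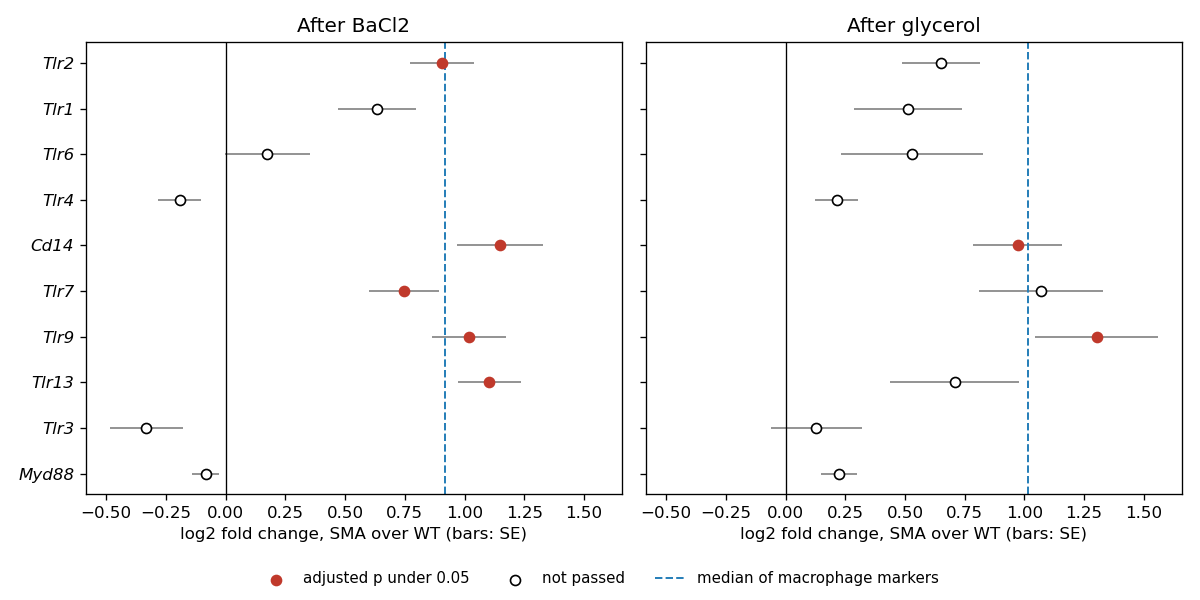
Log2 fold change of SMA over WT for the 10 genes after BaCl2 (left) and glycerol (right), with standard errors as bars; filled red points have an adjusted p under 0.05, and the dashed line is the median of the macrophage markers. After BaCl2 the called genes lie between 0.75 and 1.15, around the dashed line at 0.92, and Tlr3, Tlr4 and Myd88 lie below 0; after glycerol all 10 lie above 0 and the line is at 1.02.

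Tlr4 and Myd88 were the members whose genotype effect differed between the injuries by a z test. The log2 fold change after glycerol minus that after BaCl2 was 0.41 for Tlr4 (SE 0.13, adjusted p = 0.02112) and 0.31 for Myd88 (SE 0.09, adjusted p = 0.01927). By this test 5.53% of 13960 genes had a higher effect after glycerol and 10.5% a higher or a lower one. On simulated data this z test called unchanged genes too often, so its calls and counts are an upper reading; a t distribution made far fewer such calls. With a t distribution whose degrees of freedom come from both fits, an alternative added after seeing the data, neither passed (adjusted p = 0.07392 for both) and 0 of the 10 were called. The z test's call was also lost without any of 8 of the 14 libraries for Tlr4 (adjusted p up to 0.08039) and of 3 for Myd88 (adjusted p up to 0.06804). The difference of the other 8 members did not pass by the z test, and ranged from -0.40 (Tlr13) to 0.46 (Tlr3). By the same z test, 5 of 6 endothelial markers had a lower effect after glycerol (Pecam1, Cdh5, Kdr, Emcn and Cldn5, median of the 6 -1.42) and 3 of 9 FAP markers a higher one (Ly6a, Lum and Dcn, median of the 9 0.40), and the part of these in the differences of Tlr4 and Myd88 was not tested. The injury is also the batch in the labels, and the 2 tables were normalized separately, so that injury and batch cannot be told apart.

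Beside the level of Csf1r, the receptor of macrophage colony-stimulating factor and a marker of macrophages, 5 of the 10 genes had ratios that overlapped between the genotypes after BaCl2, 4 had lower ratios in every SMA library and 1 had higher ones. Csf1r had 189.5, 164 and 127 CPM in SMA libraries against 104, 79.6 and 85.2 CPM in WT libraries after BaCl2, and 13333, 16928, 8023 and 17954 normalized counts in SMA libraries against 6594, 5811, 5982 and 7517 in WT libraries after glycerol. After BaCl2 Tlr2 was at 71.1% to 72.1% of Csf1r in SMA libraries and at 63.9% to 73.3% in WT libraries. Tlr7 was at 13.5% to 17.5% in SMA libraries and at 14.5% to 17.1% in WT libraries. For Tlr2, Tlr7, Tlr1, Tlr9 and Tlr13 the SMA and WT ratios overlapped. The ratio of Cd14 was higher in every SMA library, at 126.8% to 141.1%, than in the WT libraries, at 96.2% to 125.2%. Lower in every SMA library were the ratios of Tlr3, Tlr4, Tlr6 and Myd88: Myd88 was at 53.5% to 81.5% of Csf1r in SMA libraries and at 106.1% to 142.9% in WT libraries. After glycerol the ratios of Tlr1, Tlr4 and Tlr6 were lower in every SMA library, with Tlr4 at 15.9% to 29.2% in SMA libraries and 30.4% to 42.4% in WT libraries, and those of the other 7 overlapped. These ratios carry no test, and the share of all genes with such ratios was not computed. Csf1r itself was higher in every SMA library after both injuries. A gene of equal level in both genotypes would therefore have lower ratios in SMA libraries.

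**Figure D3:**
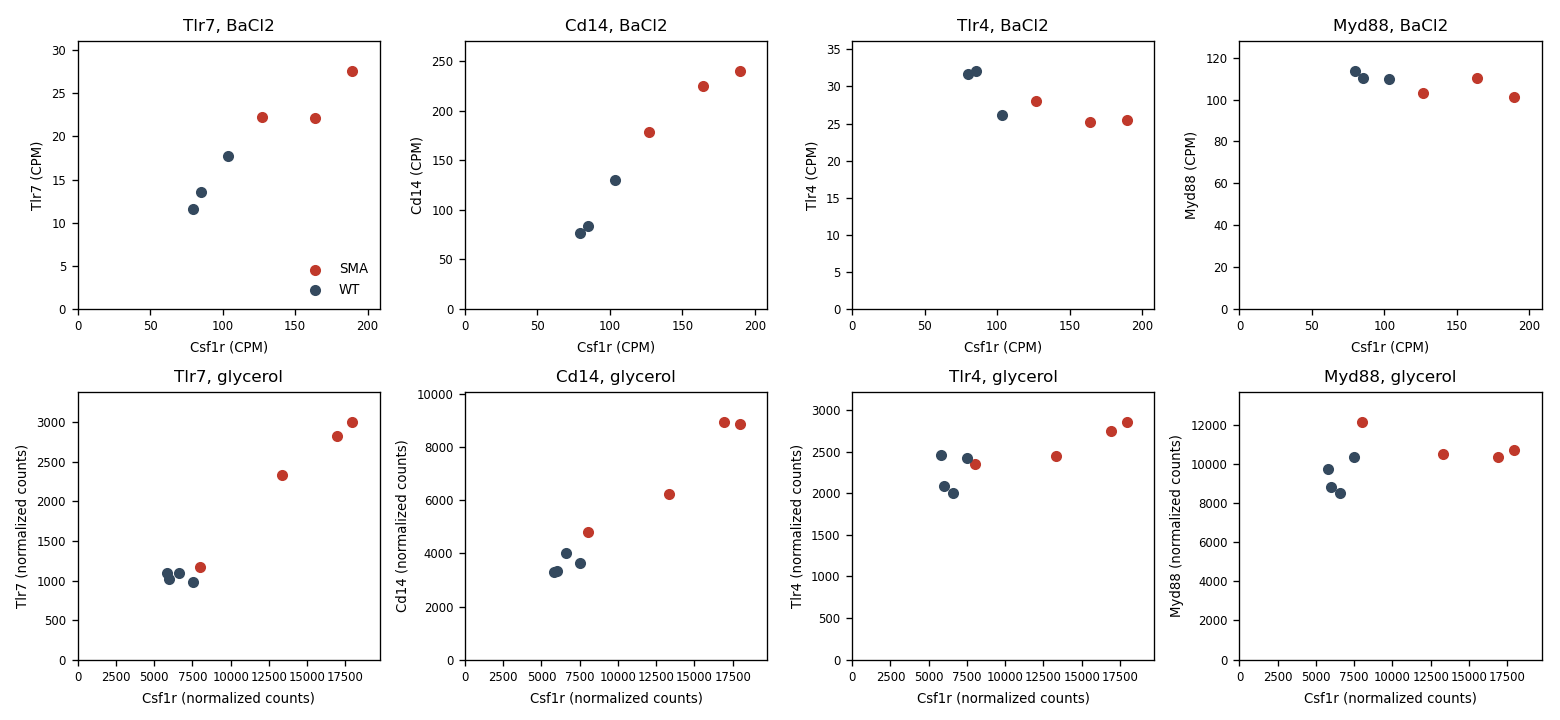
The level of Tlr7, Cd14, Tlr4 and Myd88 (vertical axes) against that of the macrophage marker Csf1r (horizontal axes) in each library, in CPM after BaCl2 (upper row) and in normalized counts after glycerol (lower row), on linear axes from 0; red points are SMA and dark points WT. Tlr7 and Cd14 climb with Csf1r when SMA and WT libraries of an injury are pooled, but not throughout the WT glycerol libraries. Among those, WT library 4 has the highest Csf1r (7517) but the lowest Tlr7 (979), and Cd14 is highest in WT library 1 (4020.0). The SMA glycerol library of 8023 Csf1r counts lies next to the WT libraries. Tlr4 and Myd88 after BaCl2 lie within 25.2 to 32.1 CPM and 101 to 114 CPM.

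Across the 14 libraries, each taken as its deviation from the mean of its table on the log2 scale, Tlr1, Tlr2, Tlr7, Tlr9, Tlr13 and Cd14 had correlations with Csf1r of 0.92 to 0.97 and Tlr6 of 0.80, while Tlr3 had -0.28, Tlr4 0.26 and Myd88 0.25. The last 3 differed between the tables: Tlr3 had -0.88 over the 6 BaCl2 libraries and 0.03 over the 8 glycerol libraries, Tlr4 -0.86 and 0.80, and Myd88 -0.72 and 0.46. With the mean of each genotype in each table removed instead, Tlr1, Tlr2, Tlr6, Tlr7, Tlr9, Tlr13 and Cd14 had 0.791 to 0.943 with Csf1r. Tlr3 then had -0.444, Tlr4 0.215 and Myd88 -0.403. These are descriptions over libraries that share genotype, sort and scaling. By the deviations from the table mean, over 12267 genes, the genes most like Tlr7 were Irf8 (r = 0.987), Clec12a and Vsir. Those most like Tlr9 were Siglec1 (r = 0.987), Fcgr1 and Coro2a. Those most like Tlr13 were Itgb2 (r = 0.990), Slc43a2 and C3ar1, those most like Tlr2 were Slfn2 (r = 0.992), Vav1 and Ms4a6d, and those most like Cd14 were Fyb (r = 0.986), Il1b and Cd200r4. Tlr1 was most like Ms4a6d (r = 0.971), Lgmn and Ly9, and Tlr6 like Asah1 (r = 0.964), Lipa and Cd80. The genes most like Tlr3 were Plscr2 (r = 0.966), Phf11d and Isg15, the last of them an interferon-induced gene. Those most like Tlr4 were Siae (r = 0.948), H2-M3 and Tbcel, and those most like Myd88 were Glis2 (r = 0.949), Zfand5 and Dcn, the last of them the gene of the matrix protein decorin.

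Per kilobase of exon (gene models of GENCODE vM21), Cd14, Myd88 and Tlr2 held the first 3 places in all 4 groups. Tlr6 had the lowest mean in each, but its range overlapped that of Tlr9 in all groups except SMA after BaCl2. After BaCl2 Cd14 averaged 123.9 CPM per kb in SMA libraries and 55.9 in WT libraries, Myd88 40.8 and 43.2, Tlr2 38.0 and 20.3, and Tlr6 0.914 and 0.808. The order of Myd88 and Tlr2 in SMA libraries was within their spread, while in WT libraries Cd14, Myd88 and Tlr2 did not overlap. In SMA libraries Tlr13 (6.18) and Tlr7 (5.88), whose ranges overlapped, stood before Tlr4 (4.72) and Tlr3 (4.12). In WT libraries Tlr4 (5.40) and Tlr3 (5.18) stood before Tlr7 (3.50) and Tlr13 (2.87). After glycerol Myd88 (4238 normalized counts per kb) and Cd14 (4169) overlapped in SMA libraries, whereas in WT libraries Myd88 (3636) was above Cd14 (2065) without overlap. Tlr3 (500.2) and Tlr4 (403.9) again stood before Tlr13 (370.6) and Tlr7 (256) in WT libraries, with Tlr4 and Tlr13 within each other's spread, and in SMA libraries Tlr13 (648), Tlr7 (571), Tlr3 (532.5) and Tlr4 (468) followed each other, each overlapping the next.

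SMA library 3 after glycerol stood apart from the other SMA libraries of that injury. It was the lowest SMA library for 8 of the 10 genes, all but Tlr3 and Myd88, for which it was the highest, and its summed macrophage markers of 162043 normalized counts lay inside the WT range, against 285316 to 390083 in the other 3 SMA libraries. SMA library 4 was the highest for 7 of the 10. Without SMA library 3, 7 of the 10 genes were higher in SMA after glycerol (Tlr1, Tlr2, Tlr6, Tlr7, Tlr9, Tlr13 and Cd14). In that fit 1645 of the 14330 genes changed in either direction, in place of 411, and the share called higher was not counted. The library was set apart by the values of these same genes, so the 7 calls are a description. Without any 1 of the other 7 libraries 0 of the 10 were called and 0 to 82 genes in all.

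The other genes of the pathway were counted by role. Of all genes tested, 2.73% were higher in SMA and 1.56% lower after BaCl2, and 1.70% higher and 1.17% lower after glycerol. These shares stand beside the counts of every list below. Among the other receptors, 1 of 3 tested was higher after BaCl2 (Tlr8) and 1 of 3 after glycerol, Tlr12, a profilin receptor, with a log2 fold change of 2.0 (adjusted p = 0.03113 by limma) at 50.9 to 113 normalized counts in SMA libraries and 10.1 to 24.1 in WT libraries. Tlr11 had no count after BaCl2. Of 11 accessory proteins, 4 were higher and 0 lower after BaCl2: Ly86 and Cd180, which pair on the cell surface (0.78, adjusted p = 0.009449, and 0.81, adjusted p = 0.02127), Slc15a3, an endosomal transporter of histidine and peptides (0.78, adjusted p = 0.006664), and Cd36, a scavenger receptor (0.85, adjusted p = 0.04511). After glycerol Ly86 was higher (1.26, adjusted p = 0.03089) and 0 were lower. Unc93b1, the chaperone that brings the nucleic acid receptors to endosomes, had 0.11 (adjusted p = 0.335) after BaCl2 and 0.49 (adjusted p = 0.05827) after glycerol, and the difference of 0.39 passed by the z test (adjusted p = 0.03334) but not with the t distribution (adjusted p = 0.1077). Of 4 endolysosomal proteases that cut the nucleic acid receptors, 3 were higher after BaCl2: Ctss (0.80, adjusted p = 0.003757), Ctsb (0.54, adjusted p = 0.01225) and Lgmn (0.59, adjusted p = 0.01225). After glycerol Ctss was higher (1.27, adjusted p = 0.03722).

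The median log2 fold changes of the macrophage markers, 0.92 after BaCl2 and 1.02 after glycerol, stand beside all of these lists, and their part in them was not tested. Of the 5 other adaptors, 1 was higher in both tables, Pik3ap1, which links the receptors to PI3 kinase (0.99, adjusted p = 0.003757 by edgeR after BaCl2, and 0.94, adjusted p = 0.04738 by limma after glycerol). Of 17 kinases and ubiquitin enzymes, 1 was higher after BaCl2, Irak2 (0.62, adjusted p = 0.01743), and 0 after glycerol. Their median log2 fold changes were 0.07 and 0.13, and Irak4, the kinase that MYD88 binds, had 0.30 (adjusted p = 0.06534) and 0.24 (adjusted p = 0.2358). Of 8 transcription factors, Rel (0.38, adjusted p = 0.01428) and Irf5 (0.57, adjusted p = 0.02901) were higher after BaCl2 and Rel (0.37, adjusted p = 0.0308) after glycerol, with medians of 0.00 and 0.02. Of 11 inhibitors, Tnfaip3 (0.46, adjusted p = 0.03491) and Tnip1 (0.33, adjusted p = 0.03316) were higher after BaCl2, both of them genes of proteins that restrain NF-kappaB, and 0 passed after glycerol. None of 6 reported endogenous ligands passed in either table. The SE of S100a8 and S100a9, which neutrophils make, was 0.53 after BaCl2 at log2 fold changes of 1.57 and 1.90.

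Of 17 genes that Toll-like receptor signalling induces, 8 were higher and 1 was lower in SMA cells after BaCl2, against 2.73% and 1.56% of all genes. Higher were Acod1, the itaconate enzyme (1.87, adjusted p = 0.002256), Il10 (1.36, adjusted p = 0.003757), Tnf (0.98, adjusted p = 0.008466) and Il1b (1.13, adjusted p = 0.01332), followed by Ccl3, Ccl4, Cd40 and Cd86 at 0.75 to 0.97. Lower was Il6 (-0.42, adjusted p = 0.02925), a cytokine that fibroblasts also make. After glycerol Il1b (1.26, adjusted p = 0.02987) and Cd86 (0.81, adjusted p = 0.03975) were higher and 0 were lower. The median log2 fold changes were 0.75 and 0.68. The chemokine genes Cxcl10 and Ccl5 differed between the injuries: Cxcl10 had 0.74 after glycerol and -0.36 after BaCl2, and Ccl5 0.87 and -0.60, neither past the threshold within a table, but with differences that passed by the z test (adjusted p = 0.001048 and 1.334e-05) and with the t distribution (adjusted p = 0.02709 and 0.01183). The same held for the interferon regulatory factor gene Irf7, at 0.82 after glycerol and -0.57 after BaCl2 (adjusted p = 0.001389 and, with the t distribution, 0.03142). Acod1 and the receptor chaperone gene Hsp90b1 had lower effects after glycerol than after BaCl2, by -1.09 (adjusted p = 0.0006734, with the t distribution 0.0232) and -0.33 (adjusted p = 0.005436, with the t distribution 0.04323). Both of these z test calls were lost without SMA BaCl2 libraries 1 and 2, a fit that leaves 1 SMA library after BaCl2. Of the other pathway genes called after BaCl2, Pik3ap1, Ctss, Il10 and Acod1 held without each library in turn, and the rest lost their call without WT library 3 at least, with adjusted p up to 0.1936 over the libraries left out. Those called after glycerol lost their call without any of 6 or 7 of the 8 libraries, with adjusted p up to 0.1284.

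**Figure D4:**
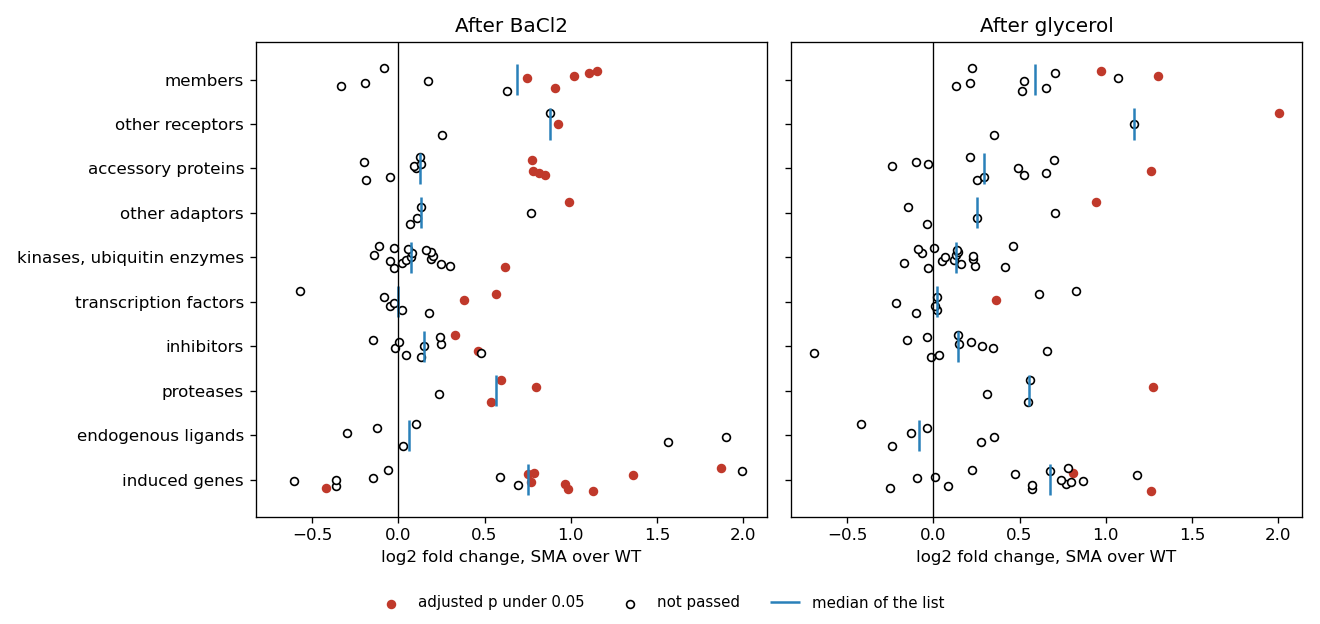
Log2 fold change of SMA over WT for the 10 genes (top row) and for the other genes of the pathway by role, after BaCl2 (left) and glycerol (right); each point is a gene, filled red where its adjusted p is under 0.05, and blue lines are list medians. The medians of the 10 genes (0.69 and 0.59), the proteases (0.56 in both) and the induced genes (0.75 and 0.68) lie to the right of those of the kinases (0.07 and 0.13) and the transcription factors (0.00 and 0.02).

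In the authors' deposited table for BaCl2, 6 of the 10 genes had an adjusted p under 0.05, the 5 called here and Tlr1. In the authors' deposited table for glycerol, 5 had one: Tlr2, Tlr7, Tlr9, Tlr13 and Cd14. The share of all genes with such a p in the authors' results was not counted, so these 2 counts have no background beside them. Markers of other cell types were counted too. Of 6 dendritic cell markers tested in each table, Itgax was higher in SMA after BaCl2 (0.84, adjusted p = 0.034 by edgeR). None passed after glycerol. No B cell, satellite cell or mast cell marker passed in either table. Sums of B cell markers were 2.07 to 2.58 CPM in SMA libraries and 2.54 to 2.95 CPM in WT libraries after BaCl2. After glycerol they were 243 to 454 normalized counts in SMA libraries and 182 to 304 in WT libraries. The part of these cells was not tested. T and natural killer cell markers after BaCl2 summed to 0.125 to 0.392 CPM in SMA libraries and 0.0519 to 0.213 CPM in WT libraries, with Cd3d, Cd3g and Ncr1 at 0 in all 6 BaCl2 libraries, and none of the 6 markers is listed in the glycerol table. Of 8 neutrophil markers 5 could be tested and Csf3r was higher in SMA in both tables, with sums after BaCl2 of 15.0 to 28.5 CPM in SMA libraries and 8.02 to 10.9 CPM in WT libraries. After BaCl2 all 5 log2 fold changes were above 0, with a median of 1.16, against 0.92 for the macrophage markers. After glycerol 4 of the 5 log2 fold changes were above 0, with a median of 0.35, while Cxcr2 was at -0.54 (adjusted p = 0.1947 by limma). The part of neutrophils in the results was not tested. Sums over these 5 after glycerol were 1272 to 2191 normalized counts in SMA libraries and 740 to 1179 in WT libraries. Of 9 FAP markers, Ly6a, Col3a1 and Lum were lower in SMA after BaCl2 and 0 changed after glycerol. Of 6 endothelial markers, 0 passed after BaCl2 and Cdh5 was lower in SMA after glycerol. Their sums after glycerol did not overlap, at 6070.1 to 7919 normalized counts in SMA libraries and 9184 to 13438 in WT libraries, with a median log2 fold change of -0.87. After BaCl2 they were 158 to 207 CPM in SMA libraries and 81.0 to 184 CPM in WT libraries, and their part in the results was not tested. The summed FAP markers were 39807 to 52790 CPM in SMA libraries and 59575 to 65975 CPM in WT libraries after BaCl2. After glycerol the FAP sums overlapped, at 3226730 to 4107489 normalized counts in SMA libraries and 3211510 to 4568672 in WT libraries.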

How the data were processed

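RNA of magnetically sorted FAPs was measured in 14 libraries (poly(A)-selected, directional kit, per the labels' protocols). The authors deposited whole-number counts per gene for BaCl2 and, for glycerol, normalized counts (a signal on a linear scale) together with their own log2 fold changes and p-values for both. Per the submitters' processing notes, fastp, Salmon, featureCounts and DESeq2 were used; their versions and roles, the genome build and the strand setting of the counting are likewise not given in the sources used. For glycerol the depth is unknown, since at most 57.5% of low values fell on whole steps (tolerance 0.1), and 6 deposited z-score columns were not used.

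Counts were tested with edgeR 4.0.16 (TMM scaling, filterByExpr, quasi-likelihood F test; R 4.3.3) and given as CPM of the scaled library. Log2(value + 1) of the normalized counts was tested with limma 3.58.1 (trend). SMA and WT were compared within each table, and the difference of the log2 fold changes by a z test. The edgeR test gives no SE, so each SE after BaCl2 was taken back from it. It is the absolute log2 fold change over the square root of the F statistic. The bars after BaCl2 and the tests of the difference use this SE. P-values were adjusted by Benjamini-Hochberg over all genes tested, with a threshold of 0.05; the code was tested on simulated data, on which the z test called unchanged genes too often and a t distribution with Welch-Satterthwaite degrees of freedom did so far less; the t distribution was added as an alternative after seeing the data. Replicates after BaCl2 (97715538 to 136437776 counts each) differed by more than counting noise (chi-square per degree of freedom 22.8 to 94.7), and none was a copy of another.

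The members and lists were chosen with earlier results of these data known. All 10 members are named; of each role list, up to 4 genes with the smallest adjusted p among those that passed, and a few fixed ones (Ly96, Unc93b1, Ticam1, Irak4, Tlr8, Tlr5, Csf1r, Pdgfra, Smn1); 3 genes most like each member. S100a8, S100a9, Cd3d, Cd3g, Ncr1, Csf3r, Cxcr2, Itgax, Ly6a, Col3a1, Lum, Cd40, Ccl3, Ccl4, Cxcl10, Ccl5, Irf7, Hsp90b1, Pecam1, Cdh5, Kdr, Emcn, Cldn5 and Dcn were named after their values were seen. Alternatives were DESeq2 1.42.0, other scalings, filters and pseudocounts, a replicate block, each library left out, and both SMA BaCl2 libraries 1 and 2 left out.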

Additional observations from a re-analysis of the deposited data

Results flagged for a closer look

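Of 20 groups of 4 glycerol libraries (10 genes, 2 genotypes), 2 held a library far from the other 3, and chance gives about 1 in 20. Tlr2 had 4656 normalized counts in WT library 4, against 3590.0 to 3706 in the other WT libraries. Tlr3 had 1609 normalized counts in WT library 1, against 2881 to 3026 in the other WT libraries. For 2 genes the effect of the genotype differed between the injuries by the z test: the difference of the log2 fold changes, glycerol minus BaCl2, was 0.41 for Tlr4 and 0.31 for Myd88, but that test called unchanged genes too often on simulated data, and neither passed with the t distribution (adjusted p = 0.07392 for both).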

How the results depend on the processing

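After BaCl2, 863 genes changed. The count was 1758 with DESeq2 and 1867 without a filter on low counts (in both Tlr1 was called too, 6 members higher, and without the filter Tlr3 was called lower, 1 member), and 108 without SMA libraries 1 and 2 (1 member higher, Tlr13, in place of 5). Leaving out 1 library gave 41 to 1577 genes, 1 to 6 members higher and 0 to 1 lower. After glycerol, 411 genes changed. The count was 201 among genes above the median mean (1 member higher in place of 2), 2 without the mean-variance trend (0 members higher) and 0 to 1645 with 1 library left out (0 to 7 members higher). The difference between injuries called 1470 genes, 530 with the t distribution and 586 without SMA BaCl2 libraries 1 and 2 (0 members in both, in place of 2), and 1004 to 1969 with 1 library left out (0 to 3 members). Signs turned for values that had not passed: without SMA BaCl2 libraries 1 and 2, Tlr3 was at 0.04, Tlr6 at -0.15, Ticam1 at 0.00, and the differences of Tlr2 and Cd14 at 0.09. With 1 library left out, Tlr6 ran from -0.02 (without SMA library 1) to 0.32 and Pdgfra from -0.17 to 0.08 (without SMA library 1) after BaCl2, and Tlr3 from -0.09 (without WT library 1) to 0.22 after glycerol. The difference of Tlr1 ran from -0.31 to 0.08, above 0 without SMA BaCl2 library 1 (0.04) or SMA glycerol library 3, and that of Cd14 from -0.45 to 0.00. Libraries of equal replicate number showed no likeness in their deviations over all genes (correlations -0.126 to 0.087 over 7 pairs). With so few libraries in a group, this cannot exclude that they were paired. The replicate block gave 1144, 257 and 1940 genes in the 3 comparisons. With it Tlr1 passed after BaCl2 (adjusted p = 0.01802) and Tlr2 after glycerol (0.04825, with Unc93b1 and Slc15a3), and the difference of Tlr3 passed (0.49, adjusted p = 0.02808). Cd14 (0.05094), Tlr12 (0.05441), Pik3ap1 (0.05746), Cd86 (0.05094) and Smn1 (0.0715) missed after glycerol. Where fewer libraries entered a fit, fewer could estimate the spread; for the other settings the cause was not tested.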
